A study of Mus musculus with 2 samples.

Results

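MHC class II presentation was followed here through 8 genes, chosen by symbol: the class II chain genes H2-Aa, H2-Ab1 and H2-Eb1, the invariant chain gene Cd74, the peptide exchange genes H2-DMa, H2-DMb1 and H2-DMb2, and the class II transactivator gene Ciita. All 8 were among the 22756 gene rows of the deposited tables, and all 8 had at least 30 counts summed over the libraries, the minimum for a gene to be called measured, which 11333 genes reached. The counts are ribosome-protected fragments (footprints), the pieces of mRNA that ribosomes shield from nuclease, from mouse ileum (strain C57BL/6, wild type, postnatal day 21). Fed mice gave 1 library and mice without food for 48 h gave the other, and both groups share strain, genotype, age and tissue. The number of animals behind a library is not stated in the labels.

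Class II molecules are pairs of an alpha and a beta chain that carry peptides from endocytosed proteins to the surface, where CD4 T cells read them. The invariant chain holds new pairs closed and steers them to endosomes, proteases cut it down to a short stub, and H2-DM swaps that stub for a peptide. Dendritic cells, B cells and many macrophages carry the pathway, and in the small intestine epithelial cells can carry it as well. Transcription of these genes depends on the protein made from Ciita, which interferon gamma can induce.

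Gene counts came to 5558620 in the fed library and 5434252 in the fasted one. Reads overlapping no counted feature made up 13.4% of the fed and 21.0% of the fasted file, and their part in the results below was not tested. With n = 1 in each condition, each difference compares 2 libraries, not the conditions, and has no replicate check. Levels are CPM, counts scaled to library size, after TMM scaling, which sets the typical gene's ratio near 1. Intervals are 95% exact intervals that cover counting error only, not differences between animals. A gene was called higher or lower when its fasted/fed ratio was past 1.5-fold and the interval excluded 1. With plain CPM, scaled to total gene counts only, every log2 ratio lies 0.32 lower, the median of all genes included. Footprint counts reflect mRNA abundance and translation together, and in whole tissue fewer cells of a type and fewer footprints per cell cannot be told apart.

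All 8 genes were lower in the fasted library, beside 17.3% of all measured genes called lower and 17.3% called higher. Their median log2 ratio was -0.91, against 0.0028 over all measured genes. The shares of 17.3% stand beside each count of called genes below, unless another setting is named. With plain CPM all 8 were again lower, beside 31.2% of all measured genes called lower and 8.86% called higher, at a median of -1.23 against -0.32. Summed over the 8, footprints came to 30481 in the fed library and 13346 in the fasted one, or 0.548% and 0.246% of all gene counts. The summed TMM-scaled level was 1.79-fold lower in the fasted library. At a 2-fold threshold 3 of the 8 were called lower (H2-DMa, H2-DMb1 and Ciita), beside 9.13% of all measured genes.

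**Figure D1:**
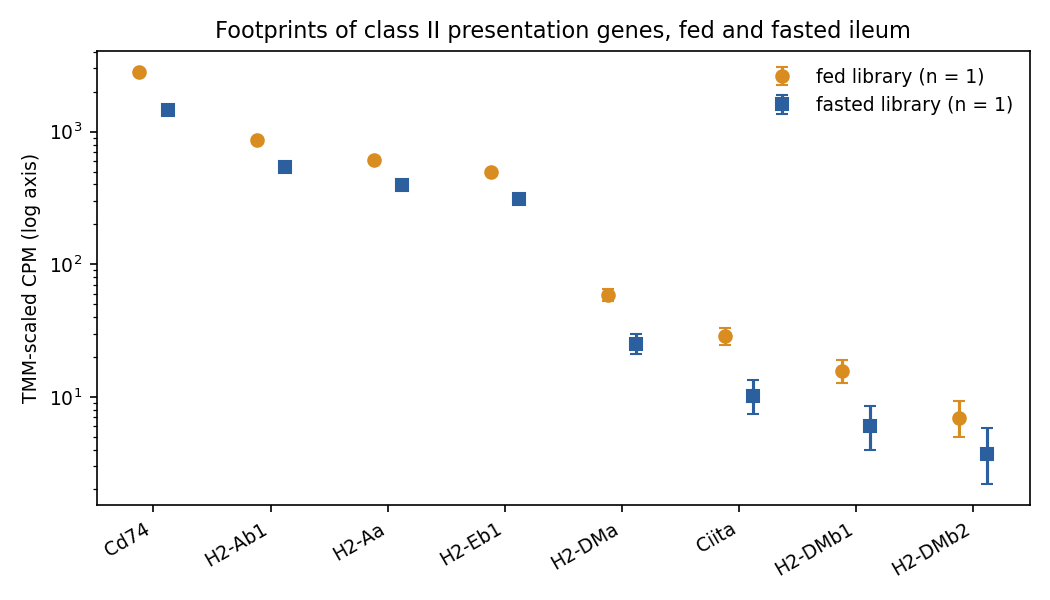
TMM-scaled CPM (log axis) of the 8 genes in the fed library (circles) and the fasted library (squares), with 95% exact Poisson intervals, in the order of the fed level. Each gene lies lower in the fasted library, and the intervals of the 2 libraries overlap for H2-DMb2 alone.

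The classical chain genes stood close together. H2-Aa encodes the alpha chain of the I-A molecule and H2-Ab1 its beta chain. H2-Eb1 encodes the beta chain of I-E, whose alpha partner is defective in C57BL/6 mice, so that this strain shows no I-E on the cell surface. H2-Aa (ENSMUSG00000036594, chromosome 17, 34282744 to 34287823, minus strand, mm10) had 3825 counts in the fed library and 1912 in the fasted one, which was 615 and 393 CPM. Its log2 ratio was -0.64 (95% interval -0.72 to -0.57), a 1.56-fold lower level that lay just past the threshold. H2-Ab1 (ENSMUSG00000073421, chromosome 17, 34257689 to 34269419, plus strand) had 5425 and 2627 counts, or 873 and 541 CPM.

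H2-Ab1 was 1.61-fold lower (log2 ratio -0.69, -0.76 to -0.62). H2-Eb1 (ENSMUSG00000060586, chromosome 17, 34305867 to 34316674, plus strand) had 3072 and 1497 counts, or 494 and 308 CPM, and was 1.60-fold lower (log2 ratio -0.68, -0.77 to -0.59). The intervals of the 3 chains overlapped one another. Counts of 1 gene per count of another within a library need no scaling, and by this measure the chains kept their proportions within counting error. H2-Ab1 had 1.42 counts per H2-Aa count in the fed library and 1.37 in the fasted one, a fasted/fed quotient of 0.969 (0.901 to 1.04). H2-Eb1 had 0.566 and 0.570 counts per H2-Ab1 count, a quotient of 1.01 (0.931 to 1.09).

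Levels of different genes were compared per kb of coding length, as TMM-scaled CPM per kb. H2-Ab1 had the most among the chains, 1098 in the fed library and 680 in the fasted one. H2-Aa followed with 801 and 512, and H2-Eb1 with 624 and 389. The beta chain of I-A thus stood 1.37-fold above its alpha chain in the fed library and 1.33-fold above it in the fasted one. All 3 lay above the 97th percentile of measured genes per kb in both libraries, the lowest being H2-Eb1 in the fasted library at percentile 97.1. Few 28-base windows of their coding sequences recur in transcripts of other genes, from 0.270% for H2-Aa to 3.66% for H2-Eb1, which shares windows with H2-Eb2 and H2-Ab1.

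Cd74 (ENSMUSG00000024610, chromosome 18, 60803848 to 60812652, plus strand) encodes the invariant chain and had the highest level of the 8 per kb, 3359 in the fed library and 1744 in the fasted one. It had 17476 counts in the fed library and 7092 in the fasted one, or 2811 and 1460 CPM. The level was 1.93-fold lower in the fasted library (log2 ratio -0.95, -0.99 to -0.91). This interval did not overlap those of the 3 chains. Cd74 had 1.42 counts per count of the 3 chains in the fed library and 1.17 in the fasted one, a quotient of 0.828 (0.795 to 0.864), so that the invariant chain was lower in the fasted library by more than the chains beyond counting error. Per kb, Cd74 stood 4.19-fold above H2-Aa in the fed and 3.40-fold above it in the fasted library.

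H2-DM, a non-classical class II molecule that stays in endosomes, was lower by more than the classical chains. H2-DMa (ENSMUSG00000037649, chromosome 17, 34119541 to 34139101, plus strand), its alpha chain, had 365 counts in the fed library and 122 in the fasted one, or 58.7 and 25.1 CPM, and was 2.34-fold lower (log2 ratio -1.22, -1.53 to -0.93). H2-DMb1 (ENSMUSG00000079547, chromosome 17, 34153072 to 34160230, plus strand), a beta chain, had 97 and 29 counts, or 15.6 and 5.97 CPM (log2 ratio -1.37, -2.04 to -0.78). H2-DMb2 (ENSMUSG00000037548, chromosome 17, 34143307 to 34151555, plus strand), the other beta chain, had 43 and 18 counts, or 6.92 and 3.70 CPM (log2 ratio -0.88, -1.78 to -0.077). The call of H2-DMb2 was lost with a wider confidence interval. Together the 3 H2-DM genes had 505 and 169 counts, 0.0410 per count of the classical chains in the fed library and 0.0280 in the fasted one, a quotient of 0.683 (0.569 to 0.817). The alpha chain had 2.61 counts per beta count in the fed library and 2.60 in the fasted one.

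The 2 beta genes are close copies, so their separate counts are uncertain. Their coding sequences, each 783 bases long, differ at 32 positions and share an identical run of 221 bases. Of the 28-base windows of either gene, 62.8% also occur in the other. Footprints from such stretches align to both genes, and the tables assign only uniquely aligned reads, so both levels are understated. The part that tells the genes apart is shown because the counts of each gene can come only from such parts: 60 bases in the second coding exon (coding bases 208 to 267) that hold 17 of the 32 differences, from GENCODE vM21 transcripts on GRCm38, 5′ to 3′, with the differing bases in capitals. They lie at chr17:34155585-34155644 for H2-DMb1 and at chr17:34147803-34147862 for H2-DMb2, both on the plus strand.
H2-DMb1: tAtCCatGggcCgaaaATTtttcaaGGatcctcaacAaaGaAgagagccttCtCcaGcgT
H2-DMb2: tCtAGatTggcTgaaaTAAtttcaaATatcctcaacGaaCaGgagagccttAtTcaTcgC
Summed over both, the beta genes had 140 counts in the fed library and 47 in the fasted one and were 2.33-fold lower (log2 ratio -1.22, -1.73 to -0.73), close to the value of H2-DMa, whose coding sequence shares no such window with any other gene. The annotated span of H2-DMa overlaps that of Brd2 on the opposite strand, and without a stated strand setting reads of overlapping genes cannot be told apart.

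Ciita (ENSMUSG00000022504, chromosome 16, 10480059 to 10528418, plus strand) had the lowest ratio of the 8. This co-activator binds no DNA itself and is recruited to class II promoters by the factors bound there. It had 178 counts in the fed library and 49 in the fasted one, or 28.6 and 10.1 CPM. The level was 2.84-fold lower in the fasted library (log2 ratio -1.49, -1.99 to -1.04), and its interval lay below those of the 3 chains and of Cd74 and overlapped those of the H2-DM genes. Per count of the 3 chains, Ciita had 0.0144 counts in the fed library and 0.00812 in the fasted one, a quotient of 0.562 (0.400 to 0.776). Per kb it was among the less abundant measured genes, at 8.26 in the fed library (percentile 33.5) and 2.91 in the fasted one (percentile 11.6). Its span overlaps Dexi on the opposite strand, with which it shares 1.75% of its windows.

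Class II promoters carry an X box, bound by RFX and CREB proteins, and a Y box, a reverse CCAAT box bound by NF-Y, on which Ciita assembles. RefSeq promoter sequences (GRCm38.p6) were at hand for 5 of the 8 genes. A stretch of 100 bases, from 120 to 21 bases before the start site, is shown for the 4 genes in which it holds a Y core, since the Y core is what these 4 windows have in common. Sequences run 5′ to 3′ on the gene's strand, and capitals mark the X core AGNAAC and the Y core ATTGG as read on that strand. The coordinates are chr17:34287844-34287943 (minus strand) for H2-Aa, chr17:34305747-34305846 for H2-Eb1, chr17:34153071-34153170 for H2-DMb1 and chr17:34145129-34145228 for H2-DMb2 (plus strand). Start sites are those of RefSeq. The window of H2-DMb2 and nearly all of that of H2-DMb1 lie inside the GENCODE gene spans given above, so the 2 annotations differ in start site there.
H2-Aa: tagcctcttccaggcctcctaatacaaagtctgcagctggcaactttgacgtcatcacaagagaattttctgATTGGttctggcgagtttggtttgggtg
H2-Eb1: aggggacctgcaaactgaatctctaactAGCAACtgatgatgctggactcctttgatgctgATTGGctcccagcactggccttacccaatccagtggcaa
H2-DMb1: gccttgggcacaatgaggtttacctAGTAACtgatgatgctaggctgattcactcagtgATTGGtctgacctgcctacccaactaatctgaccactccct
H2-DMb2: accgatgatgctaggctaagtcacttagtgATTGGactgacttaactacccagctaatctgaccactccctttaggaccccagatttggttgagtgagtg
The Y core began 48 bases before the start site in H2-Aa, 59 in H2-Eb1, 61 in H2-DMb1 and 90 in H2-DMb2. An X core preceded it by 33 bases in H2-Eb1 and by 34 in H2-DMb1. The letters AGNAAC were not in the window of H2-Aa or H2-DMb2. Neither of the 2 start sites listed for H2-DMa held the spaced pair, which was thus in 2 of the 5 genes with a sequence. Searched on both strands of all 32851 listed promoters of 300 bases, the X core was in 48.1% and the Y core in 37.4%. The pair, 15 to 35 bases from start to start, was in 1.14% on either strand. On the gene's strand, as read for the members, it was in 0.581%. These shares are for 300 bases, not for the 100 bases shown. The windows of H2-DMb1 and H2-DMb2 aligned at 71 of their 100 bases, of which 62 (87.3%) were identical. A match is a description of the sequence and no measure of binding.

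The factors that bind these boxes were few in counts and did not move one way. Of 7 measured, 2 were lower, 1 was higher and 4 were neither, at a median log2 ratio of -0.27. Creb1, which binds the X box, had 140 counts in the fed library and 43 in the fasted one (log2 ratio -1.34, -1.88 to -0.85). Nfya, a subunit of NF-Y, had 139 and 49 counts (log2 ratio -1.14, -1.65 to -0.67). Nfyc, another NF-Y subunit, was the higher one with 40 and 49 counts (log2 ratio 0.64, 0.016 to 1.29), a call lost with plain CPM, with upper-quartile factors, with the wider interval and at 2-fold. Of the RFX subunits, Rfx5 had a log2 ratio of -0.28 (-1.11 to 0.50), Rfxap 0.36 (-0.36 to 1.07) and Rfxank 0.18 (-0.33 to 0.69). No difference in them was detectable at this depth.

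Upstream of Ciita, 7 genes of the interferon gamma pathway were measured in the list reported here, of which 2 were higher, 1 was lower and 4 were neither. Irf1, a transcription factor that acts at the interferon-responsive promoter of Ciita, had 1134 counts in the fed library and 234 in the fasted one and was 3.79-fold lower (log2 ratio -1.92, -2.13 to -1.72). Its interval overlapped that of Ciita. Ifngr1, the ligand-binding receptor chain, was higher (1504 and 2170 counts, log2 ratio 0.88, 0.79 to 0.98), as was Irf2, a relative of Irf1 (454 and 572 counts, 0.69, 0.51 to 0.87). Neither of these 2 was past the threshold with plain CPM, at 0.56 and 0.37. Ifngr2, Jak1, Jak2 and Usf1 were neither, with log2 ratios from -0.18 to 0.24. Ifng, the cytokine gene, had no count in either library, which allows up to 3 counts, or 0.483 CPM in the fed library and 0.617 CPM in the fasted one. The list's median was 0.21 and changed sign with plain CPM, to -0.12.

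**Figure D2:**
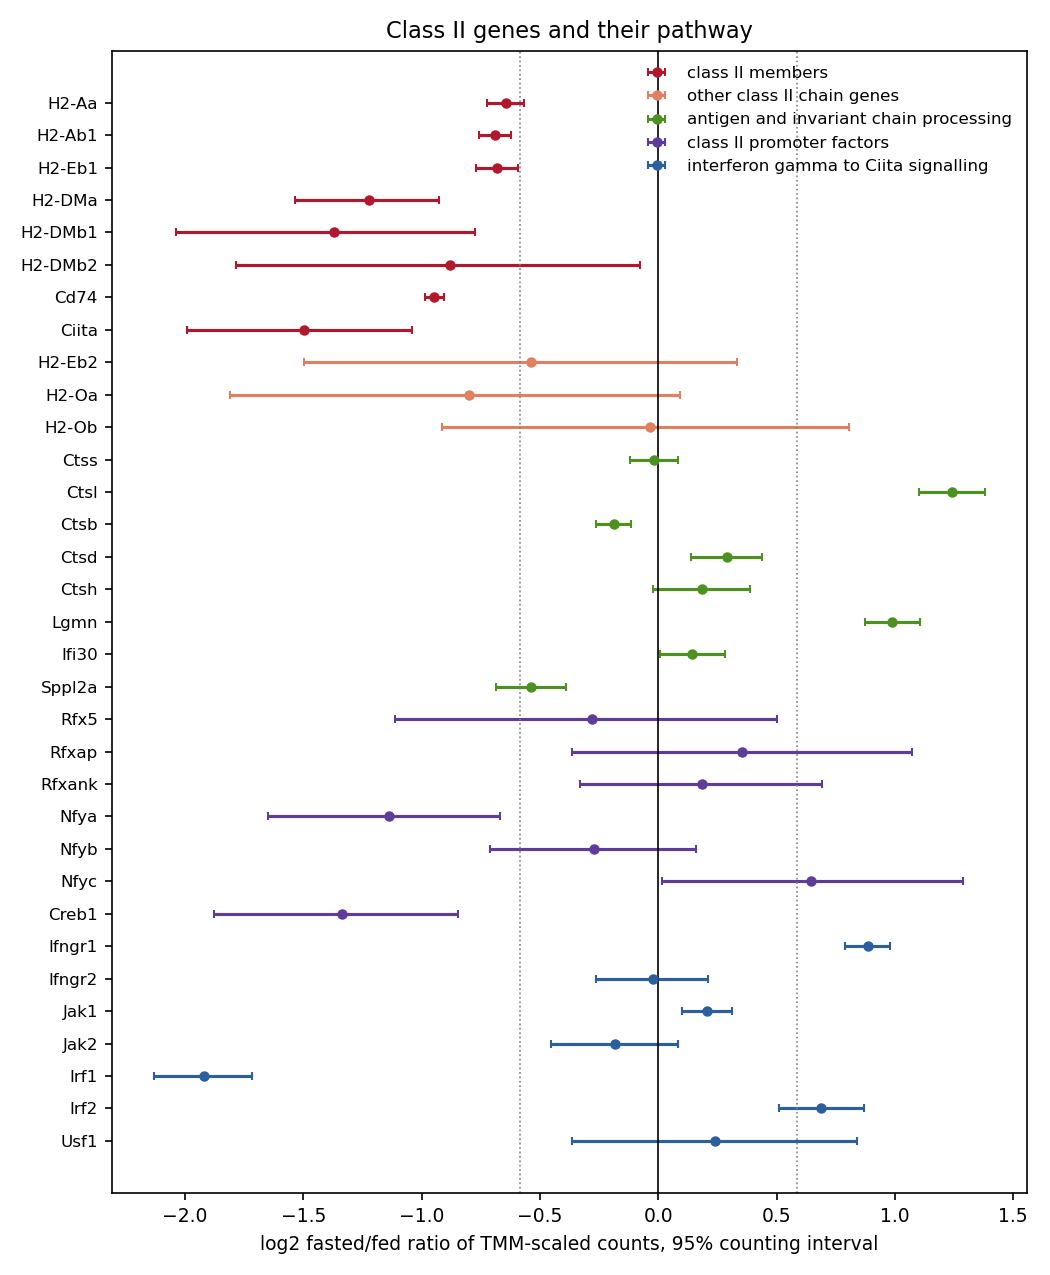
Fasted/fed log2 ratio of TMM-scaled counts for the 8 members and the measured genes of 4 pathway lists, with 95% counting intervals; dotted lines mark 1.5-fold. The 8 members lie left of 0, as do Irf1, Creb1 and Nfya, while Ctsl, Lgmn and Ifngr1 lie right of it.

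The machinery that prepares peptides and trims the invariant chain did not move one way. Of 8 measured processing genes, 2 were higher and 0 lower, at a median log2 ratio of 0.16 (-0.16 with plain CPM). A log2 ratio below 0 was found for 3 of the 8. Ctsb had the most counts of the list, 3706 in the fed library and 2542 in the fasted one. Its log2 ratio was -0.19 (-0.26 to -0.12), or -0.51 with plain CPM. Ctss, cathepsin S, which makes the last cut in the invariant chain of antigen-presenting cells, had 1785 counts in the fed library and 1377 in the fasted one (log2 ratio -0.019, -0.12 to 0.083). Ctsl, cathepsin L, was higher with 642 and 1185 counts (log2 ratio 1.24, 1.10 to 1.38). Lgmn, an asparaginyl endopeptidase of lysosomes, was higher too, with 978 and 1518 counts (log2 ratio 0.99, 0.87 to 1.11). Ifi30, the thiol reductase that opens disulfide bonds of antigens, had 931 and 804 counts (log2 ratio 0.14, 0.0059 to 0.28). Sppl2a, which removes the membrane stub of the invariant chain, had the lowest ratio of the list (1090 and 587 counts, log2 ratio -0.54, -0.68 to -0.39) and was under 1.5-fold. With plain CPM it was called lower, at -0.86. Most of these lysosomal proteins are made by many cell types besides those that carry class II.

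The remaining class II chain genes had few footprints. H2-Oa and H2-Ob encode the chains of H2-O, which restrains H2-DM and is best known from B cells. H2-Oa had 34 counts in the fed library and 15 in the fasted one (log2 ratio -0.80, -1.81 to 0.090) and H2-Ob 29 and 22 (-0.035, -0.91 to 0.81). H2-Eb2, a relative of H2-Eb1, had 32 and 17 counts (log2 ratio -0.54, -1.50 to 0.33). All 3 intervals included no difference. Genes of T cell help and its receptors were also sparse. Cd4, the co-receptor for class II, had 96 and 101 counts (log2 ratio 0.43, 0.011 to 0.85), and the co-stimulatory genes Cd86 and Cd40 had 27 and 20, and 24 and 15. Of 6 measured genes of this list only Icosl was called, as higher (log2 ratio 0.79, 0.35 to 1.24), and with plain CPM none was.

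Of the 8 members, 6 lie in the class II region of chromosome 17, a span of 249 kb from 34092340 to 34341412 between H2-Oa and H2-Eb2. Of 11 other genes of this span in the tables, 8 were measured, all with a log2 ratio below 0, as for 49.8% of all measured genes. Beside 17.3% of all measured genes, 3 of these 8 were called lower. They were Psmb9 and Psmb8, subunits of the immunoproteasome, which cuts peptides for class I (log2 ratios -1.44, -1.77 to -1.12, and -1.28, -1.50 to -1.07), and Tap1, a subunit of the transporter that carries those peptides into the ER (-0.73, -0.94 to -0.53). Tap2, the other subunit, had -0.57 (-0.76 to -0.39). Brd2, a chromatin reader, had -0.39 (-0.62 to -0.16). With plain CPM 6 of the 8 were lower, beside 31.2% of all measured genes.

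**Figure D3:**
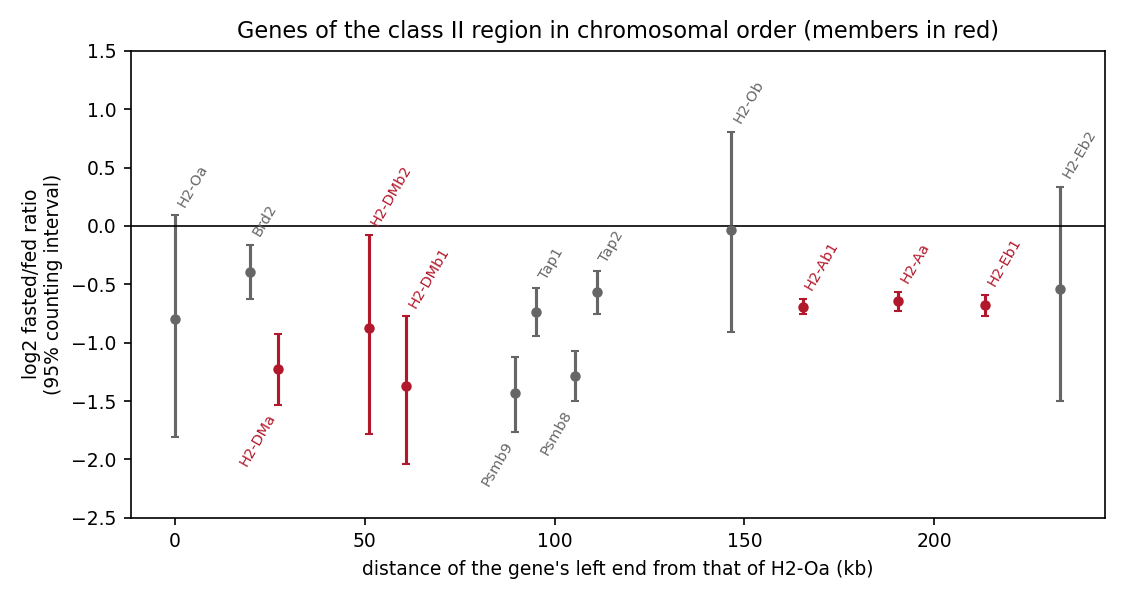
Fasted/fed log2 ratio with 95% counting intervals of the 14 measured genes of the class II region, by distance in kb from the left end of H2-Oa; members are in red. The 3 classical chains sit together between -0.69 and -0.64, and the lowest values are those of Psmb9, H2-DMb1 and Psmb8.

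Class I presentation, the parallel pathway for peptides of the cytosol, was set beside class II. Of 12 measured class I genes, 5 were lower and 0 higher, beside 17.3% lower over all measured genes. The list's median log2 ratio was -0.65. Of this list, Tap1, Tap2, Psmb8 and Psmb9 were also in the region above. The class I heavy chains differed from the class II chains: H2-K1 had 6182 counts in the fed library and 5421 in the fasted one (log2 ratio 0.17, 0.11 to 0.22) and H2-D1 3526 and 3099 (0.17, 0.10 to 0.24). Both lay below 0 with plain CPM, at -0.16 and -0.15, and both have close relatives in the genome, so their counts are uncertain. B2m, the light chain of class I, had 11564 and 7540 counts (-0.26, -0.30 to -0.22). The 3 class II chains had 1.07 counts per B2m count in the fed library and 0.801 in the fasted one, a quotient of 0.751 (0.720 to 0.784).

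The list medians of markers of the cells that carry class II differed in direction with TMM scaling, but all lay below 0 with plain CPM. All 7 pan-leukocyte markers were measured and 6 were lower, beside 17.3% of all measured genes. At 2-fold 2 were lower, beside 9.13%. The markers had a median log2 ratio of -0.75. Their summed level was 428 CPM in the fed library and 263 CPM in the fasted one. Ptprc, the leukocyte phosphatase CD45, had 804 and 344 counts (log2 ratio -0.87, -1.06 to -0.69). The 3 class II chains had 4.63 counts per count of these markers in the fed library and 4.73 in the fasted one, a quotient of 1.02 (0.948 to 1.10). Summed over each group, chains and leukocyte markers were thus lower in the fasted library in the same proportion, within counting error. Single markers spread around this. Their log2 ratios ran from -1.26 (-1.80 to -0.77) for Cd52 to -0.30 (-0.50 to -0.098) for Laptm5. The summed chains had -0.67 (-0.72 to -0.63). Whether the number of leukocytes had a part in the members' values was not tested.

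B cell markers were lower in 7 of 9 measured genes and higher in 0, beside 17.3% lower over all measured genes, at a median log2 ratio of -1.27. With the wider interval 3 were lower. With at least 200 counts Cd79b alone was measured, and the median was then its own value. Their summed level over 11 genes was 120 CPM in the fed library and 58.2 CPM in the fasted one, and none was at 0 in either. Ms4a1, the B cell surface protein CD20, had 106 and 27 counts (log2 ratio -1.60, -2.28 to -0.997), and Cr2, a complement receptor of B cells and follicular dendritic cells, 100 and 10 (-2.90, -4.07 to -2.03). The markers with the most counts were lower by less: Cd79b and Cd79a, the signalling chains of the B cell receptor, had 152 and 75 counts (-0.66, -1.08 to -0.26) and 128 and 65 (-0.62, -1.08 to -0.18). Cd22, at -0.57, and Ebf1, at -0.12, were not called. Per count of B cell markers, the chains had 16.5 counts in the fed library and 21.3 in the fasted one, a quotient of 1.29 (1.12 to 1.49). Without Cr2, left out after its value was seen, the quotient was 1.16 (0.9996 to 1.34), an interval that included 1.

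Dendritic cell markers were sparse, with 5 of 11 measured. Of these 2 were lower and 0 higher, beside 17.3% lower over all measured genes. The list's median log2 ratio was -0.62. Its summed level was 196 CPM in the fed library and 110 CPM in the fasted one. Most of these counts came from Irf8, which B cells and macrophages also express (594 and 225 counts, log2 ratio -1.04, -1.27 to -0.82), Itgax and Itgae, the last of which intraepithelial T cells also carry. Some more specific markers of the list were under the minimum of 30 counts: Xcr1 had 17 and 6 counts, Clec9a 7 and 1, Zbtb46 15 and 13. Per count of dendritic cell markers, the chains had 10.1 counts in the fed library and 11.3 in the fasted one, a quotient of 1.12 (1.01 to 1.25). The share of these cells in the members' values was not tested.

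Macrophage and monocyte markers did not move one way. All 13 were measured, with 2 higher, 2 lower and 9 neither, and a summed level of 698 CPM in the fed library and 784 CPM in the fasted one. Their median log2 ratio was 0.097, or -0.23 with plain CPM. Csf1r, the receptor that macrophages need to survive, had 863 and 706 counts (log2 ratio 0.066, -0.080 to 0.21), C1qa 406 and 439, and Itgam 474 and 156 (-1.24, -1.52 to -0.98). Per count of these markers, the chains had 2.84 counts in the fed library and 1.59 in the fasted one, a quotient of 0.558 (0.529 to 0.589).

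Epithelial markers were far more abundant, with a summed level of 18363 CPM in the fed library and 19356 CPM in the fasted one. Of 11 measured, 1 was higher and 2 were lower, and the median log2 ratio was 0.016, or -0.31 with plain CPM. Epcam, an adhesion protein of all intestinal epithelial cells, had 18876 and 15045 counts (log2 ratio 0.028, -0.0028 to 0.059). Vil1 was the higher one, with 22303 and 27446 counts (0.65, 0.63 to 0.68), a call lost with plain CPM, at 0.33. Krt18 (-0.86, -0.96 to -0.77) and Elf3 (-1.10, -1.20 to -1.01) were the lower ones, so the list was not uniform. Per count of all 11 epithelial markers, the chains had 0.108 counts in the fed library and 0.0642 in the fasted one, a quotient of 0.595 (0.576 to 0.614). T cell markers had 1 of 7 measured lower and 0 higher (median -0.33, summed level 50.03 and 38.1 CPM). Markers of group 3 innate lymphoid cells, which can carry class II, had 3 of 6 measured and none called (median 0.28, or -0.045 with plain CPM, where 1 was lower). Il22 had 1 and 0 counts and Il23r 2 and 2, so the list says little of these cells.

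**Figure D4:**
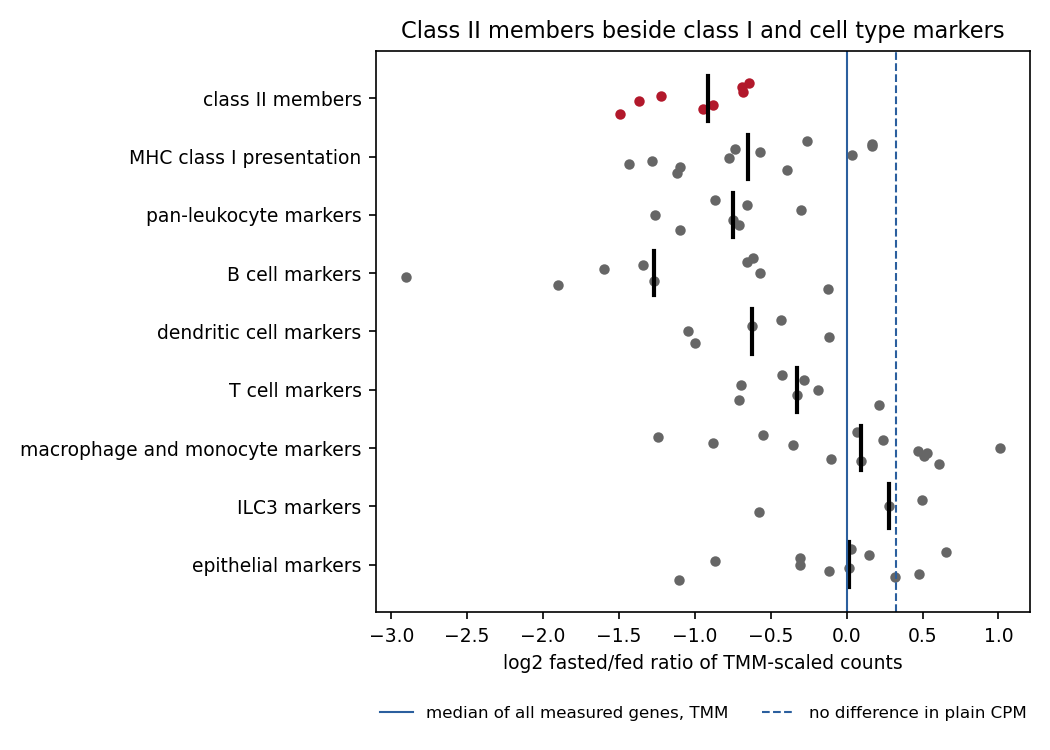
Fasted/fed log2 ratio of TMM-scaled counts of each measured gene (points) by list, with the list median (black bar). The solid line is the median of all measured genes and the dashed line marks where plain CPM gives no difference. All points of the class II members and of pan-leukocyte, B cell and dendritic cell markers lie left of both lines.

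**Figure D5:**
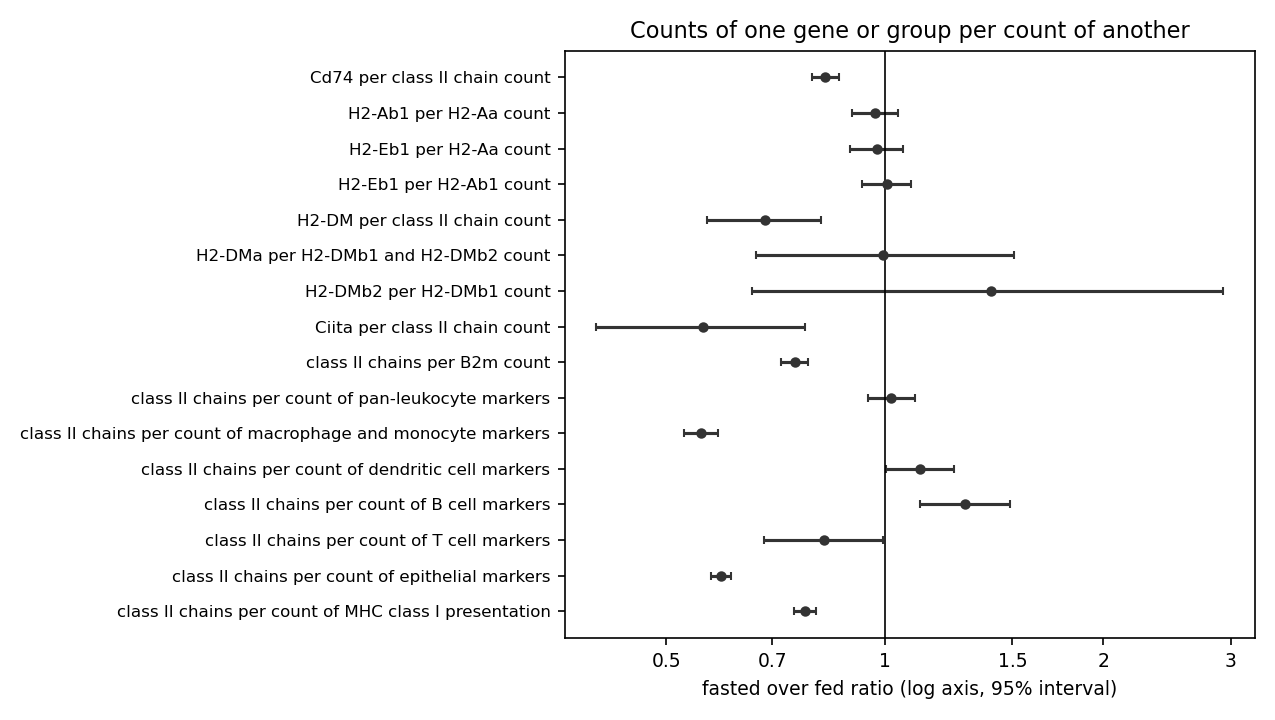
Counts of 1 gene or group per count of another, as the fasted over the fed value (log axis) with 95% exact intervals; no library scaling enters. The chains keep their proportion to one another and to the summed counts of pan-leukocyte markers, near 1. They lie at 0.558 against macrophage and 0.595 against epithelial markers.

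Among the genes of the other lists with at least 100 counts, those with a log2 ratio nearest to that of the summed members (-0.84) over the 2 libraries were Krt18, an epithelial keratin (-0.86), Ptprc (-0.87) and Cd53, a leukocyte tetraspanin (-0.75). With 2 libraries this likeness rests on a single ratio per gene.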

How the data were processed

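Each deposited file gives raw counts of reads by gene symbol for 1 library, as made by the authors with cutadapt, Bowtie 1.1.2, STAR, HTSeq and mm10 in unstated roles, per the submitters' processing notes. Annotation, strand setting and footprint length filter are not stated there. Entries given as NA (7647 fed, 7827 fasted) were read as 0. Reads assigned to no gene stayed out of library sizes; those aligned to several places made up 41.4% of the fed and 39.9% of the fasted file. In 24 rows the symbol had become a calendar date; these are not named.

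Libraries were scaled with TMM (edgeR 4.0.16, R 4.3.3), used for scaling only, since 1 library per group allows no test between conditions. Ratios carry exact Clopper-Pearson intervals on the split of counts, count quotients the exact conditional interval (scipy 1.17.1), and log2 ratios of single genes 0.5 added counts. PCR reads are not independent molecules, so intervals and floors reflect counting error alone. The functions were tested on simulated data. Symbols were matched once to GENCODE vM21 (GRCm38) for 21904 rows (96.3%), which gave coordinates and the longest complete coding length. The members and lists were chosen with earlier results of these data known, and the count quotients, the coding comparison and the promoter window after counts or sequences were seen. Named are all members, genes of the lists with at least 30 counts (called ones first), genes at 0 or under 30 counts where a list turns on them, and the 3 genes nearest to the summed members. Of the listed genes, 2 are not reported here, and their lists were counted without them. Alternatives were plain CPM, DESeq2 1.42.0 size factors, upper-quartile factors, TMM without abundant genes, no minimum or 200 counts, 2-fold, wider (99.9%) intervals and 2 added counts. A count quotient without Cr2 was added after seeing the data.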

Additional observations from a re-analysis of the deposited data

How the results depend on the processing

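No paired analysis was possible because each condition had 1 library, and for the same reason no library could be left out. The direction of all 8 members held under each of the 9 alternatives that kept them, and calls were lost for H2-Aa (-0.64), H2-Ab1 (-0.69), H2-Eb1 (-0.68), Cd74 (-0.95) and H2-DMb2 (-0.88) at 2-fold and for H2-DMb2 with a wider interval. At 2-fold 3 members were lower, and the log2 ratios of the sum (-0.84) and of the 3 chains (-0.67) were no longer past the threshold. Plain CPM moved the members' median to -1.23. Over all genes, 1956 were higher (1004 with plain CPM, 1187 with at least 200 counts, 935 at 2-fold) and 1962 lower (3536, 892 and 1035). Over the genes of all other lists, 9 were higher (3 with plain CPM, 2 at 2-fold) and 28 lower (46 and 18). With at least 200 counts 16 were lower. Over all measured genes the share called lower was 17.3% (31.2% with plain CPM, 9.13% at 2-fold). The number of measured genes pooled over the lists is not given, so these counts cannot be set against those shares. Plain CPM turned the list medians of processing genes (-0.16), interferon gamma signalling (-0.12), co-stimulation (-0.31), macrophage markers (-0.23), innate lymphoid markers (-0.045) and epithelial markers (-0.31) below 0. Upper-quartile factors did so for co-stimulation (-0.0082) and epithelial markers (-0.0058). No minimum count did so for co-stimulation (-0.068) and innate lymphoid markers (-0.15). Scaling shifts all ratios by 1 amount; the other causes were not tested. B cell markers were lower in 7 genes, 3 with a wider interval and 1 with at least 200 counts, where Cd79b alone was measured. Over all measured genes 1962, 1371 and 892 were lower in these settings. The chains per B cell marker count fell from a quotient of 1.29 to 1.16 without Cr2. H2-DMb1 and H2-DMb2, under 200 counts each, are limited by depth.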
